A study of Mus musculus with 12 samples.

Results

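A set of 30 of the 51691 catalogue probes on a mouse expression array rose at each of 3 successive steps of a chemically induced colon cancer model, from untreated colon to tumour tissue. They are described here by probe ID and sequence. The members were selected on the deposited log2 values themselves, so their rise is a description and not a test result. A catalogue probe, which carries an ID with the manufacturer's prefix, was kept if its group mean at 1 week exceeded that at 0 weeks by at least 0.5 and less than 1 on the log2 scale. Its mean at 2 weeks had to exceed that at 1 week by at least 0.5, and its mean at 10 weeks that at 2 weeks by at least 0.5. Every 10-week array had to lie above every 0-week and 1-week array, and the 10-week mean had to reach 6. Of the catalogue probes, 20542 reached that level, 128 of these also met the conditions on both earlier steps, and 31 met the third as well. The array comparison removed 1 more, which left 30, or 0.146% of the catalogue probes at that level and 0.058% of all catalogue probes. The array held 145548 different probes in all, the others being custom probes.

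The tissue was colorectal tissue of male C57BL/6 mice, with 3 arrays at each of 4 time points and no genetic alteration named in the labels. Untreated mice supplied the 0-week tissue. Mice at 1 week had received azoxymethane (AOM) only, whereas those sampled at 2 and at 10 weeks had received both AOM and dextran sulfate sodium (DSS). Under the stated protocol, 10 mg/kg AOM was injected intraperitoneally, and 2% DSS in drinking water began 7 days later, lasted 7 days and was followed by 14 days of plain water, with 3 cycles in all. The 2-week time point therefore fell at the end of the first DSS course. Tissue of 10 weeks is labelled as tumour, and that of both 1 and 2 weeks as colitis. Ages are not given, and nothing in the labels ties an array to an animal of its own, so p-values measure only the spread between these samples, which may be technical. No untreated group of the age of the tumour mice was analysed here.

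AOM is a carcinogen whose metabolites alkylate DNA in the colonic epithelium, and DSS injures that epithelium and brings on colitis with ulceration and repair. Repeated DSS after AOM yields adenomas in the distal colon, most of which activate Wnt signalling through beta-catenin. Between untreated mucosa and tumour the tissue changes in its make-up as well as in its cells, as immune and stromal cells enter and crypts are lost and rebuilt. In RNA from whole tissue, a higher share of cells of a type and more RNA per cell cannot be told apart.

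None of the 51691 catalogue probes was paired with a gene in the files, where the gene name field repeats the probe ID and the description reads unknown. No member shared 20 consecutive bases with a RefSeq promoter sequence or microRNA of the GRCm38.p6 tables. The markers of colon and of other cell types could therefore not be checked, and no gene name is given to any member. Each member was a 60-base probe with a single spot on the array. The median GC content was 45.0% among the members, with a range of 35.0% to 55.0%. It was also 45.0% among the 20542 catalogue probes with a 10-week mean of at least 6, and it was 41.7% among all catalogue probes.

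Of the 30 members, 6 held the hexamer AATAAA on the strand given in the files. This hexamer is the canonical polyadenylation signal, which lies just upstream of the 3′ end of most messenger RNAs. It was present in 6 of 30 members (20.0%), in 8.74% of the catalogue probes with a 10-week mean of at least 6 and in 10.3% of all catalogue probes. Its reverse complement, TTTATT, was present in 1 member (3.33%), in 3.32% of those brighter catalogue probes and in 3.96% of all. Such a match is a string of letters and was not shown to be a used site. The hexamer was 1 of several features counted. ATTTA was present in 3 members (10%), against 8.27% of all catalogue probes, and ATTAAA in 1 (3.33%), against 3.97%. No CG was present in 15 (50%), against 49.4%, and no forward frame free of stop codons in 3 (10%), against 20.4%. In A_55_P2146254 and A_55_P2762554 the hexamer lies in a stretch that both share, so the 6 are not separate cases. A stretch of 30 bases around the hexamer, which is in capitals, is shown for each of the 6.
A_51_P255875: ctcagctctgcttagagatgctgcAATAAA
A_55_P2140036: ggaaatattcccAATAAAgtgttctcttgg
A_55_P2146254: catggtggactcAATAAAgtgcacgtgctg
A_55_P2762554: cacagtggattcAATAAAgtgcacttgata
A_52_P322141: gagggaaagaagAATAAAgctgaaacccct
A_51_P408506: agaaacctttcctttgaatcAATAAAgttt

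Among the 435 pairs of members, 2 pairs shared 12 or more consecutive bases. A_55_P2146254 and A_55_P2762554 shared the 14 bases tcaataaagtgcac, visible in both stretches above, and matched at 40 of 57 positions when laid side by side without gaps. A_52_P78023 and A_55_P2807989 overlapped by 41 bases, and the opening of that overlap is catctgttgtgctgttctgttgtgatcaac. These 2 probes are therefore not independent measurements, and the 30 members stand for at most 29 separate target sequences. Over the 12 arrays the overlapping pair correlated at r = 0.987 and the similar pair at r = 0.968. The points of both correlations share the same arrays and the group differences used in the selection, so the values are descriptions only. No custom probe and no other catalogue probe shared 20 consecutive bases with a member on either strand, so the array offered no further overlapping probe with which to compare a member.

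Across the 30 members, the median rise in the deposited log2 values was 0.66 from 0 to 1 week, 1.02 from 1 to 2 weeks and 0.87 from 2 to 10 weeks. The rise over the whole course had a median of 3.04 and ran from 1.82 to 7.21. For 9 members, among them the one with 7.21, the untreated signal was not well above background, so their differences and shares are those of the deposited values and not measured sizes. On array-scaled values, that member rose by 6.84 from the lowest 0-week signal called well above background, which is not a strict minimum. Over the 20542 catalogue probes with a 10-week mean of at least 6, the median change was 0.05, 0.01 and -0.08 at the 3 steps and 0.01 over the whole course. The step to 1 week made up 7.78% to 35.6% of a member's whole rise, with a median of 22.5%, and its upper limit was set by the rule. It was the largest step in 0 of 30 members. The step across the first DSS course was the largest in 14 members and the step from 2 to 10 weeks in 16. For 12 of the 30 these later steps differed by less than 0.3, so the split is one of degree.

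The 14 members that rose most across the first DSS course had a median rise of 1.85 on the deposited log2 scale between 1 and 2 weeks and of 0.73 between 2 and 10 weeks. Probe A_66_P130121 gave 3.85, 4.40 and 4.45 on the untreated arrays and 5.16, 4.66 and 5.28 after AOM alone. It gave 8.10, 7.85 and 7.57 at 2 weeks and 8.36, 9.31 and 8.12 in tumour tissue. The arrays of the 4 time points did not overlap for this probe, and its mean rose by 2.81 across the DSS course but by 0.76 thereafter. It was well above background, in the scanner software's sense, on 2 of 3 untreated arrays and on all 9 others.

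Probe A_55_P2146254 showed a similar course. Its deposited log2 values were 5.72, 5.90 and 6.21 in untreated tissue and 6.84, 7.27 and 5.81 after AOM. They were 9.38, 8.81 and 9.90 after the DSS course and 9.70, 11.06 and 10.04 in tumour tissue. The third 1-week array lay among the untreated arrays, and the first 10-week array among the 2-week arrays. The mean rose by 0.70, 2.73 and 0.90 at the 3 steps. Probe A_55_P2762554, which resembles it in sequence, also rose most across the DSS course, by 0.96, after 0.65 at the step before and with 0.89 to follow. Its group means were 9.45 ± 0.30, 10.10 ± 0.46, 11.06 ± 0.40 and 11.95 ± 0.58 (SD, n = 3). Its arrays overlapped between no neighbouring time points in the deposited values. On the array-scaled values used for the fit, 10-week replicate 1, at 2.56, lay below 2-week replicate 3, at 2.67.

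Probe A_51_P343517 averaged 7.81 ± 0.56, 8.41 ± 0.35, 11.11 ± 0.28 and 11.75 ± 1.15 in the order of the weeks (SD, n = 3, deposited log2 values). It rose by 2.70 across the DSS course. Its tumour arrays read 10.94, 11.23 and 13.06, so 2 of them lay within the 2-week range of 10.81 to 11.37, and the last step of 0.64 rested on the third. Probe A_51_P184484 read 3.63, 4.48 and 4.92 in untreated tissue, 5.36, 5.63 and 4.97 after AOM, 7.85, 6.79 and 7.89 at 2 weeks and 8.30, 9.19 and 9.42 at 10 weeks. Its groups did not overlap at any step, which rose by 0.98, 2.19 and 1.46.

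For A_51_P123625 and A_65_P03303 the arrays overlapped at the step after the DSS course. Probe A_51_P123625 read 5.89, 7.22 and 5.82 at 2 weeks and 7.26, 7.32 and 6.32 at 10 weeks on the deposited log2 scale. Probe A_65_P03303 read 6.52, 7.22 and 6.54 at 2 weeks and 7.59, 8.05 and 7.08 at 10 weeks. In both, 1 tumour array lay below the highest 2-week array. The preceding step, of 2.66 and 2.62, separated every 2-week array from every 1-week array. Probe A_51_P438853 read 5.46, 6.00 and 5.20 at 2 weeks. It was not well above background on any 1-week array, so its step of 2.59 across the DSS course starts from a level that is only a bound. Its tumour arrays then diverged, at 5.08, 8.98 and 8.55, so that 1 of them lay below all 2-week arrays.

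The 16 members that rose most between 2 and 10 weeks had a median rise of 0.75 across the first DSS course and of 1.08 after it, on the deposited log2 scale. The largest rise over the whole course belonged to A_51_P255875. It read 3.45, 3.16 and 3.01 in untreated tissue and 3.66, 3.72 and 3.93 after AOM, then 7.21, 6.66 and 6.76 after the DSS course and 10.00, 11.05 and 10.20 in tumours. Its groups did not overlap at any step, and the later steps were close to each other, at 3.11 and 3.54. In the unscaled scanner signal, an intensity, it gave 6.32 to 8.55 on untreated arrays, 83.1 to 120 at 2 weeks and 1014 to 2283 at 10 weeks. It was not well above background on any 0-week or 1-week array, so its first steps, of 0.56 and 3.11, start from a level that is only a bound.

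Probe A_55_P2140036 had the largest last step of the 30, at 4.21 on the deposited log2 scale. It read 3.05, 3.59 and 3.44 at 0 weeks, 3.59, 4.02 and 4.43 at 1 week, and 5.95, 5.26 and 5.39 at 2 weeks. Its tumour arrays read 7.97, 9.83 and 11.45, all above every earlier array but spread over 3.48 log2 units. Probe A_55_P2822536 rose by 0.87, 0.90 and 3.33, to tumour values of 6.83, 8.69 and 7.46. It was well above background on none of the 0-week and 1-week arrays and on 1 of 3 at 2 weeks, so its first steps lay among weak signals.

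The steepest member that was well above background on all 12 arrays was A_55_P2096545. It read 5.57, 5.73 and 5.26 in untreated tissue, 6.34, 6.59 and 5.87 after AOM, 8.15, 7.36 and 7.28 at 2 weeks and 10.03, 10.70 and 10.22 at 10 weeks, on the deposited log2 scale. No array of 1 time point overlapped with the next, and the steps grew from 0.74 to 1.33 and 2.72. The whole rise was 4.79, or 27.7-fold. The opening 30 bases of this probe, shown because it kept to the rule whichever array was left out, are aactgcaacagcaacatgtgcttctctggg. The only other member of which this held was A_51_P513568, whose largest step, of 1.35, fell across the DSS course. It opens with gtttatcctctctggaaagttccttggtgc. It averaged 5.30 ± 0.13, 5.94 ± 0.24, 7.29 ± 0.34 and 8.50 ± 0.55 in the order of the weeks (SD, n = 3), with no overlap between neighbouring time points, and rose 9.17-fold in all. Both were singled out after their values were seen.

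The rise over the whole course was below 3 log2 units in 15 members. Probe A_55_P1979341 averaged 9.70 ± 0.17, 10.32 ± 0.18, 10.83 ± 0.15 and 11.53 ± 0.30 (SD, n = 3, deposited log2 values), with steps of 0.61, 0.51 and 0.70. Its arrays were separate at every step. Probe A_55_P2166501 averaged 9.46 ± 0.41, 10.09 ± 0.20, 10.65 ± 0.07 and 11.38 ± 0.23. Here too no neighbouring groups overlapped, and the steps were 0.63, 0.56 and 0.74. The overlapping probes A_52_P78023 and A_55_P2807989 rose by 1.84 and 2.11 in all, with steps of 0.60, 0.57 and 0.67 in the former and 0.71, 0.58 and 0.82 in the latter. Probe A_52_P681310 rose by 0.82, 1.15 and 0.54, and its last step left 1 tumour array, at 7.88, among the 2-week arrays of 7.60 to 7.98.

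On untreated arrays 9 members were nowhere well above background, namely A_51_P255875, A_55_P2140036, A_51_P438853, A_55_P2822536, A_65_P03303, A_51_P123625, A_55_P2212503, A_51_P417891 and A_55_P2148171. Their 0-week level is only a bound, and the fold change given is a nominal minimum. It sets the 10-week mean against the lowest signal of any probe well above background on each 0-week array. Where the probe's own signal was higher, that was used instead, on array-scaled log2 values. This floor is not a detection limit. The level used for A_65_P03303 was -5.12, against -5.33 for A_51_P255875, because its own signal exceeded the floor without being called well above background. A true level above the floor would give a smaller fold. By this measure A_51_P255875 was 115-fold higher at 10 weeks than at 0 weeks, with measured means of -5.80 and 1.52. A_55_P2140036 was 74.3-fold higher, with means of -5.65 and 0.89. The other 7 were 7.54-fold to 18.9-fold higher. These nominal minima hold for the array-scaled signals only: for A_55_P2148171 the value was 7.91-fold, whereas the difference in its deposited values was 7.37-fold. With normexp background correction, A_51_P255875 rose by 4.28 log2 units, below its nominal minimum of 6.84. Each of the other members named here also rose by less than its nominal minimum with that correction. Its offset of 50 by construction shrinks rises from dim signals. The limma adjusted p of these 9 ran from 4.58e-07 to 0.000683, but the members had been selected on the same arrays. Of these, A_51_P255875, A_51_P438853, A_55_P2822536 and A_51_P417891 were also not well above background on any 1-week array, so the first step of the rule compared signals not well above background. On 10-week arrays all 30 members were well above background, and 19 were so on all 12 arrays.

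The members varied most at 10 weeks. In the order of the weeks, the range of the 3 arrays had a median of 0.71, 0.67, 0.56 and 1.05 log2 units, and the largest SD fell at 10 weeks in 20 of 30 members. These measures were not taken over all catalogue probes, so the wider spread is not shown to be particular to the members. More than 2 log2 units lay between the tumour arrays of 5 members, namely A_51_P367880, A_51_P438853, A_55_P2140036, A_51_P417891 and A_51_P343517. The widest was A_51_P367880, with tumour values of 6.53, 7.71 and 12.90. One of its tumour arrays lay below the lowest 2-week array (6.74), and its 10-week mean of 9.05 rested on 10-week replicate 3. A_51_P417891 read 4.65, 7.70 and 6.32 at 10 weeks, after 4.45, 3.91 and 4.56 at 2 weeks.

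The members were highest on 10-week replicate 2 in 24 of 30 cases (80.0%), as were 41.2% of the 20542 catalogue probes with a 10-week mean of at least 6, and 0 were lowest there, against 25.5%. Their median deviation from the group mean on that array was 0.40 log2 units, against 0.04 for those catalogue probes. The median deviation was -0.26 on 10-week replicate 1 and -0.22 on replicate 3, against -0.07 and 0.01. At 0 weeks, 21 of 30 members were lowest on replicate 1, as were 31.2% of those catalogue probes, with a median deviation of -0.27 against 0.00. It was 0.20 against 0.06 on 0-week replicate 3 and 0.19 against 0.06 on 1-week replicate 2. On every other array the members' median deviation was between -0.15 and 0.08. The part that these arrays play in the steps was measured by leaving each out of the rule. Of the 30 members, 19 met the rule without 0-week replicate 1, 20 without 1-week replicate 2 or without 1-week replicate 3, and 23 without 10-week replicate 2. Without the other arrays 21 to 29 did, and 2 members did in every case.

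Arrays of neighbouring time points were fully separate for 18 of 30 members between 0 and 1 week, for 28 between 1 and 2 weeks and for 19 between 2 and 10 weeks. Of the 20542 catalogue probes with a 10-week mean of at least 6, 15.9%, 10.7% and 19.3% were separate in the same direction. The selection required a minimum rise at each of these steps, so nothing is read from the difference. All 3 steps were separate in 14 members. The share of catalogue probes separate at all 3 was not counted, so nothing is read from this number either. The 2 members that overlapped between 1 and 2 weeks were A_55_P2212503 and A_55_P2807989.

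A fit of limma to all 62416 tested probes set the steps against the spread of the arrays, on scanner signals scaled by array. With Benjamini-Hochberg adjustment over all tested probes, 30 of 30 members were higher at 10 weeks than at 0 weeks, as were 22.8% of the tested probes. Between 2 and 10 weeks 13 were called higher, against 23.5% of the tested probes, and between 1 and 2 weeks 11 were, against 0.670%. At 1 week against 0 weeks limma called 0 of 30 members, against 0.703% of the tested probes, while 15 had an unadjusted p below 0.05. The smallest adjusted p at that step was 0.0625, for A_65_P02347. Both later steps were called in 5 members, and all 3 steps in 0. For these joint counts, and for the unadjusted p, the share of the tested probes was not counted. The F-test over the 4 time points was passed by 29 members, against 37.1% of the tested probes. The exception was A_51_P367880, with an adjusted p of 0.103. The selection used these very contrasts, so the counts describe how large the members' steps were beside the spread of the arrays and support nothing further.

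The number of members called between 1 and 2 weeks changed when single arrays were left out. It fell from 11 to 4 without 1-week replicate 1, to 5 without either of the other 1-week arrays or without 2-week replicate 3, and to 6 without 2-week replicate 1. The share of all tested probes called in these smaller fits was not counted, so the fall is not shown to be particular to the members. Group means rose at every step in all 30 members under each of 6 scalings, as they did in 10.1% of the tested probes under the main one. The deposited values were 1 of the 6, where the rule fixed this outcome, and the others use the same arrays. Nothing is therefore read from this count. The size of the steps depended on the scaling. With normexp background correction the median rise was 0.33 instead of 0.68 from 0 to 1 week, and 0.58 instead of 1.04 from 1 to 2 weeks. Over the whole course it was 1.89 instead of 3.29, and 4 of the 30 members met the rule. With the array percentile taken over all probes, the median last step was 0.56 instead of 0.98, and 15 met the rule. Under the main scaling the median rise over the whole course was 3.29 for the members and 0.23 for all tested probes, the latter being 0.01 in the deposited values. The 10-week arrays shared a slide and a scan that held no other group, so slide and tumour cannot be told apart. No slide or scan of the earlier time points held more than 1 group either, so the same holds for every step.

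The nearest value inside and outside was taken for each limit of the rule, on the deposited log2 scale. For the step to 1 week, A_51_P123625 entered at 0.512 and A_55_P2732913 was left out at 0.499, while 175 probes met everything but that minimum. At the upper limit of the same step, A_51_P438853 entered at 0.985 and A_51_P199199 was left out at 1.051, with 23 probes beyond it. For the step to 2 weeks the nearest were A_55_P1979341, at 0.514, and A_52_P616392, at 0.468, with 136 probes below. For the last step they were A_52_P681310, at 0.545, and A_66_P112482, at 0.477, with 43 below. The 10-week mean was 6.225 for A_51_P417891 and 5.955 for A_51_P212741, the nearest of 16 left out. A_51_P367880 had a distance of 0.134 between its lowest tumour array and its highest array of 0 or 1 week. The 1 probe left out on that count, A_55_P2743355, had a value of -0.312 for the same distance.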

How the data were processed

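RNA from 12 samples, 3 per time point, was hybridised to 1-colour (Cy3) arrays. Per the submitters' processing notes, the authors extracted spots with Agilent Feature Extraction 10.7.1.1. Its processed signal, deposited for each spot, is an intensity detrended within the array, with surrogates in use for low signals, per the file headers. The deposited table holds log2 values per probe, whose normalization is not given in the sources used here. Its columns have the same quantiles (median 2.92), and they correlate with the log2 processed signal at 0.995 or more. Flags of the scanner software (other deposited values) mark spots above background and outliers.

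Members and levels were taken from the deposited log2 table. For the fit, outlier spots were dropped (a probe with every spot flagged kept its value), spots of a probe were averaged, and the 75th percentile was subtracted from each array, taken over the 42385 probes that every array measured well above background. Tests covered the 62416 probes for which at least 3 arrays did so, with limma 3.58.1 in R 4.3.3 at an adjusted p below 0.05. Arrays had 33.3% to 44.4% of their probes above background by this flag, with 0 saturated spots. Depth does not apply to arrays, and 3 arrays per group limit the precision.

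Named were the 10 members with the largest whole rise, the 5 with the highest 10-week mean and those nearest each limit of the rule, plus members singled out after their values were seen. Members and lists were chosen with earlier results of these data known. Gene and marker lists were not used, since no probe was paired with a gene. Alternatives were 5 other scalings or sources, other filters, blocks for slide and replicate number, and each array left out. The number of all catalogue probes meeting the rule under them, and the rule with outlier spots kept, were added after seeing the data.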

Additional observations from a re-analysis of the deposited data

How the results depend on the processing

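With the 75th percentile over all probes, 15 of the 30 members met the rule, and with normexp background correction 4 did; without 1 array 19 to 29 did. The median rise with normexp was 0.33 from 0 to 1 week, 0.58 from 1 to 2 weeks and 1.89 over the whole course, and the offset of 50 by construction shrinks rises from dim signals. The percentile over all probes lowered the median rise from 2 to 10 weeks to 0.56, and it lowered the median of all tested probes at that step from 0.27 to -0.14. Between 2 and 10 weeks 20 members were called with normexp and 21 with slide as a random block. All 2-week arrays shared a slide and all 10-week arrays another, so this block cannot separate slide from time point, and its estimated correlation was -0.09. Between 1 and 2 weeks 5 were called with no filter on dim probes, 5 in a fit of only the groups compared, and 4 to 11 without 1 array. At 1 week 1 member was called with slide as a random block, 1 when a probe had to clear background on at least 6 arrays, and 0 to 1 without 1 array, the 1 without 1-week replicate 1. Causes of these changes were not tested. The share of all tested probes called was counted for the main fit only. A change in the members can therefore not be told from a change in all probes. Among all catalogue probes, a count added after seeing the data, 58 met the rule with steps of at least 0.4, 20 with steps of at least 0.6, 8 with normexp, 18 with the percentile over all probes and 42 with the main scaling of the scanner signals.

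Arrays of the same replicate number showed little shared deviation (r of -0.10 to 0.19, with 1 of 18 pairs above 0.1), and the main fit used no pairing. Whether the numbers mark a pairing cannot be told from these values. With the replicate number as a block, limma called 0, 10, 15 and 30 members in the 3 steps and the whole course, against 0, 11, 13 and 30 without the pairing. The share of all tested probes called with this block was not counted. The planned comparison with other probes of the members' genes could not be run, since no such probe was found. No slide held more than 1 group, so no values within a slide exist.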

Other observations

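The limits were also met by 6 of the 93857 custom probes, 11144 of which had a 10-week mean of at least 6. None shared more than 8 consecutive bases with a member. The steepest was CUST_OEV3_053483, with deposited log2 means of 3.52, 4.39, 6.55 and 8.92 in the order of the weeks. CUST_OEV3_050319 followed with 7.07, 7.77, 9.19 and 11.53.

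The catalogue probes outside the set whose course was most like that of A_51_P255875, by Pearson's r over the 12 arrays, were A_52_P278047 (r = 0.9947), A_51_P426270 (0.9896), A_55_P2757442 (0.9892), A_51_P270904 (0.9889) and A_55_P1987914 (0.9869). All 5 missed the minimum of the step to 1 week. A_52_P278047 had deposited log2 means of 1.41, 1.87, 5.53 and 8.72 and thus rose by 0.46 at that step and by 7.31 in all. Its means at 0 and 1 week lay below the array median of 2.92, and its background flag was not looked up. These differences are therefore those of the deposited values and not measured sizes. The points share the same arrays and the group differences, so r is a description.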
